A study of Mus musculus with 8 samples.

Results

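The genes described here are the 8 heavy chain constant genes of mouse immunoglobulins, Ighm, Ighd, Ighg1, Ighg2b, Ighg2c, Ighg3, Igha and Ighe. They were chosen by symbol among the 32285 genes counted, and all 8 were present. Single-cell RNA was counted in 8 spleen libraries of mice aged 2 months, in 4 groups of 2 libraries. The cKO mice were Eif3e fl/fl Cγ1Cre Rosa26-YFP LSL, so that Cre removed Eif3e, a subunit gene of the translation initiation factor eIF3. The controls were Cγ1Cre Rosa26-YFP LSL littermates with unfloxed Eif3e, so Cre and the reporter were shared by every group. Each library held pooled cells of several mice, sorted as total live splenocytes or as YFP+ cells, and the labels number the libraries of each group as batch 1 and batch 2. Whether both sorts of a batch came from the same mice is not stated. Cγ1Cre is made when the γ1 constant segment, Ighg1 itself, is transcribed. The YFP+ sort therefore rested on past activity of one of the genes described, in both genotypes alike.

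The constant gene that is joined to the rearranged variable region sets the class of an antibody. A naive B cell makes IgM and IgD by alternative processing of one long transcript over Ighm and Ighd. An activated cell can switch class by cutting out the DNA between Ighm and a downstream constant gene. The gene joined in this way is one whose own promoter has first been turned on by cytokine signals. IgG1 and IgE are the classes for which interleukin-4 is best known in the mouse, IgG2c is linked to interferon γ and IgA and IgG2b to TGFβ. Plasma cells make the secreted form in very large amounts. The counts hold 1 value per gene, so transcripts of an unswitched gene, of a switched gene, of the membrane form and of the secreted form are added together in each value, and which of them the molecules came from was not tested.

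In the GRCm38 annotation (GENCODE vM21) all 8 lie on the minus strand of chromosome 12, in the order Ighm (113418558 to 113422730), Ighd (113406604 to 113416324), Ighg3 (113356224 to 113361232), Ighg1 (113325240 to 113330523), Ighg2b (113302965 to 113307933), Ighg2c (113285325 to 113288932), Ighe (113269260 to 113273248) and Igha (113254830 to 113260236). The 4 IgG genes are close copies of each other, so reads could be placed in the wrong copy, while Ighe is far from all of them. The last 90 coding bases of the secreted transcript, the coding stretch nearest to the end that a 3′ kit reads, are shown for the IgG genes and Ighe for this reason. Bases that differ from Ighg1 are in capitals, except in Ighe, which could not be set base by base against it at this length.
Ighg1: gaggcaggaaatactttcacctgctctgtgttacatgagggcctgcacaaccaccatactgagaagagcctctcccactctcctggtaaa
Ighg2b: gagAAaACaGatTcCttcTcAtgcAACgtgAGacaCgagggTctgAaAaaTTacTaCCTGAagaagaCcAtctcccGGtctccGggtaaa
Ighg2c: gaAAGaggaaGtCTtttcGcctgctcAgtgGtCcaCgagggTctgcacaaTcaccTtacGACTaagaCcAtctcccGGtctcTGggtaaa
Ighg3: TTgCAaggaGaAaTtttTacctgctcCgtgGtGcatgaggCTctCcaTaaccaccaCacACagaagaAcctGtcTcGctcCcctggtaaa
Ighe: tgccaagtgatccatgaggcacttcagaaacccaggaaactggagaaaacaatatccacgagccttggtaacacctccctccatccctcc
These stretches lie in the last exon of the secreted form at chr12:113328979-113329068 for Ighg1, chr12:113306392-113306481 for Ighg2b, chr12:113287392-113287481 for Ighg2c, chr12:113359668-113359757 for Ighg3 and chr12:113271276-113271365 for Ighe. Of the 90 bases, 31 differed from Ighg1 in Ighg2b, 24 in Ighg2c and 23 in Ighg3. Over the whole coding sequence Ighg2b and Ighg2c were 85.9% identical and shared a run of 78 bases. The other IgG pairs were 75.3% to 77.4% identical with shared runs of 28 to 41 bases. The longest run that Ighe shared with any IgG gene was 14 bases. Ighg2b and Ighg2c were therefore the closest pair over the whole coding sequence, but not over the 90 bases shown. Which IgG genes exchanged reads, and how many, was not tested.

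After filtering, the libraries held 9276 to 11652 cells and 71894780 to 105224903 UMIs (unique molecular identifiers, each standing for 1 captured molecule), with medians of 5250 to 6810.5 UMIs per cell, and any pair of libraries shared at most 102 cell barcodes. Classes were rebuilt from clusters made without immunoglobulin genes and are called "like" a cell type. Naive B-like cells numbered 1954 and 2485 in control YFP+ batches 1 and 2, 4518 and 6561 in cKO YFP+, 3188 and 4053 in control total and 3537 and 3996 in cKO total. Activated B-like cells numbered 224 and 251, 1568 and 1566, 282 and 422, and 485 and 468 in the same order. Germinal centre B-like (GCB-like) cells numbered 1686 and 3423, 355 and 214, 62 and 51, and 176 and 240. Plasma cell-like cells numbered 888 and 1049, 114 and 95, 57 and 41, and 59 and 98. The classes were made of different clusters in different groups. In naive B-like cells the cluster led by Maml3 and Slc16a10 held 95.7% to 98.5% of control cells but 1.11% and 2.81% of cKO YFP+ and 8.66% and 11.4% of cKO total cells, and clusters led by Scn3a or by Wfdc17 held the remainder. In activated B-like cells the cluster led by Tnfsf4 and Phlda3 held 39.2% and 48.8% of cKO YFP+ cells and 4.50% to 9.83% of the cells of the other 6 libraries. Eif3e, read as a check of the labels, was 283 and 312 CPM (the gene's UMIs over all UMIs of the class in that library, on the usual CPM scale) in activated B-like cells of control YFP+ and 154 and 156 CPM in cKO YFP+. It was higher in naive B-like cells of the cKO YFP+ libraries, at 281 and 365 against 207 and 262 CPM, in GCB-like cells it was 272 and 304 against 264 and 297 CPM, and in plasma cell-like cells 107 and 117 against 107 and 136 CPM. Eif3e was thus lower in cKO YFP+ in activated B-like cells, while the genotypes overlapped in GCB-like and plasma cell-like cells. Whether the counted 3′ ends fall in the floxed part, and so how far these values check the labels, was not tested.

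The leading constant gene of a cell is the member with the most UMIs in it, with at least 3 UMIs and no tie. In naive B-like cells of every library it was Ighm in 73.8% to 86.0% and Ighd in 10.5% to 16.0% of cells. In GCB-like cells Ighm led 70.8% and 48.6% of control YFP+ cells and 83.9% and 64.7% of control total cells, against 27.0% and 8.41% of cKO YFP+ and 10.8% and 5.0% of cKO total cells. Ighg1 was the most frequent leading gene of cKO GCB-like cells in all 4 cKO libraries. Ighe led 0% and 0.204% of control YFP+ GCB-like cells and 3.94% and 11.7% of cKO YFP+ ones, and in plasma cell-like cells the shares were 0.225% and 0.286% against 12.3% and 40.0%. Exact binomial intervals on such shares cover counting error only. Over 888 control YFP+ plasma cell-like cells of batch 1 the interval of the Ighe share ran from 0.0273% to 0.811%, and over 95 cKO YFP+ cells of batch 2 from 30.1% to 50.6%.

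**Figure D1:**
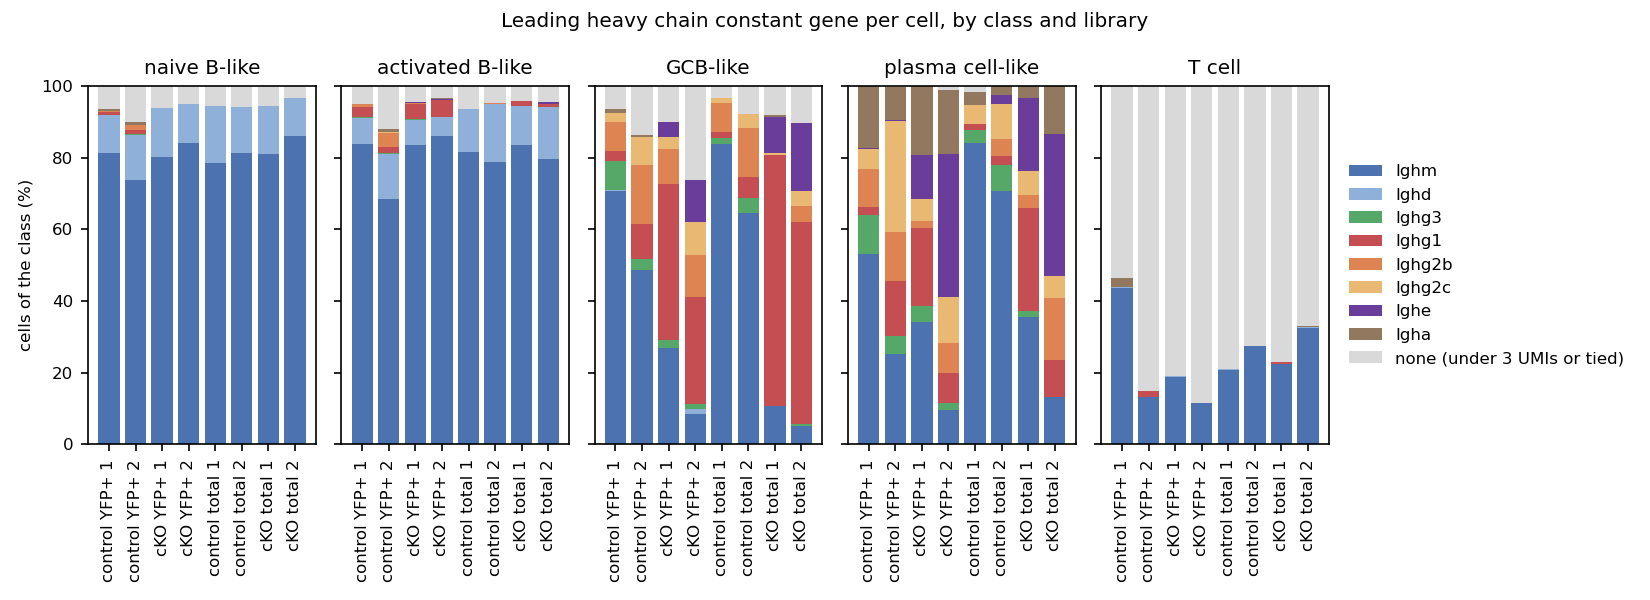
Share of cells (%, y axis) led by each heavy chain constant gene, in each of the 8 libraries (bars) for 4 B-lineage classes and T cells. Colours are genes and grey is cells without a leading gene. Ighe, in purple, led 3.94% to 18.8% of cKO GCB-like and 12.3% to 40.0% of cKO plasma cell-like cells.

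How much of these counts could be free RNA, released by broken cells and caught with any cell, was judged from T cells, which make no immunoglobulin. T cells of the same libraries were far from empty of it. Ighm stood at 245 to 502 CPM in T cells of the 8 libraries, and T cells led by Ighm by the rule above made up 11.5% to 43.7%. Ighd was 11.8 and 0 CPM in T cells of control YFP+, 71.4 and 85.4 CPM in cKO YFP+, 22.0 and 29.7 CPM in control total and 28.1 and 29.3 CPM in cKO total. The YFP+ libraries held few T cells (318 and 60 in control, 323 and 26 in cKO). For batch 2 a count of 3 UMIs was worth 12.1 CPM in control YFP+ and 21.3 CPM in cKO YFP+, so levels below these cannot be told from 0 there.

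Ighm and Ighd were above this background in naive B-like cells and most switched genes were near it. Over the libraries with more than 3 UMIs in both cell types, Ighm and Ighd stood at 4.91 to 94.1 times the T cell level in naive B-like cells, and the 6 switched members at 0.583 to 6.0 times, with a median of 1.23 over 39 values. The highest ratio was that of Ighg3, at 1.30 to 6.0. Ighm was 2467 and 2478 CPM in naive B-like cells of control YFP+, 2253 and 2448 in cKO YFP+, 2279.6 and 2758 in control total and 2279.8 and 2544 in cKO total. Ighd was 1107 and 1159 CPM in control YFP+, 1127 and 1106 in cKO YFP+, 1213 and 1346 in control total and 1142 and 1154 in cKO total. The genotypes overlapped for Ighm in the total sort and for Ighd in the YFP+ sort, and neither gene passed the test between genotypes (log2 fold changes of 0.08 ± 0.33 SE for Ighm and 0.12 ± 0.29 for Ighd in YFP+ cells, edgeR adjusted p = 0.964 and 0.934). Ighe was 0.499 and 0.678 CPM in naive B-like cells of control YFP+ and 8.10 and 10.8 CPM in cKO YFP+, and T cells of the same libraries stood at 1.12 and 4.03 CPM and at 8.86 and 14.2 CPM. In the total libraries Ighe was 0 and 1.01 CPM in control naive B-like cells, with 0 and 1.08 CPM in T cells, and 5.14 and 24.9 CPM in cKO naive B-like cells, with 4.54 and 23.2 CPM in T cells. In these 2 cKO total libraries, where T cells were numerous, the naive level was 1.13 and 1.07 times that of T cells. Igha was at 1.16 and 1.95 times the T cell level in naive B-like cells of control YFP+, at 1.04 and 0.604 times in cKO YFP+, at 1.95 and 5.34 times in control total and at 1.11 and 1.06 times in cKO total. The ratio of 5.34 rested on 11 T cell UMIs and that of 0.604 on 2. Levels of switched genes in naive B-like cells that lie at those of T cells are read here as background and not as expression in naive cells.

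**Figure D2:**
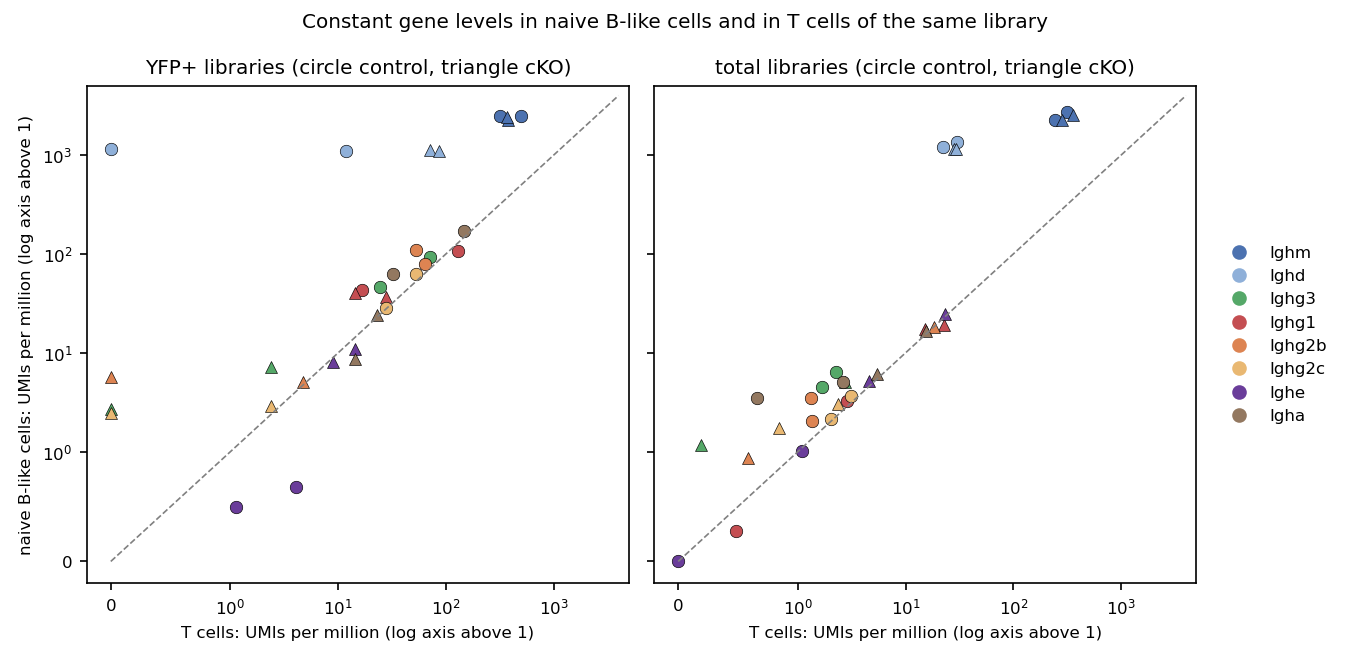
Levels of the 8 genes in naive B-like cells (y axis, CPM) against T cells of the same library (x axis, CPM), YFP+ libraries on the left and total libraries on the right, both axes log above 1. The dashed line marks equal levels. Ighm and Ighd lie above it, and the switched genes lie near it, at a median of 1.23 times the T cell level.

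With that limit, 4 of the 8 members were called between genotypes in YFP+ naive B-like cells, where edgeR called 0.527% of all 12340 genes. Ighe was higher in cKO by 4.16 ± 0.43 on the log2 scale (edgeR adjusted p = 0.0160). The control libraries held 4 and 5 Ighe UMIs, so the gene passed the filter on low counts through the cKO libraries. Ighg2b, Ighg2c and Ighg3 were lower, by −3.99, −3.96 and −3.72. Ighg2b was 79.2 and 110.1 CPM in control YFP+ and 5.09 and 5.64 CPM in cKO YFP+ naive B-like cells, and 63.9 and 52.3 against 4.72 and 0 CPM in the T cells beside them. Ighg2c and Ighg3 were likewise higher in control than in cKO T cells of this sort. With the batch as a block 5 members were called, Igha (−2.70) being added, beside 12.7% of all genes. When the level in T cells was subtracted from every sum, a step added after the T cell levels were seen, Ighg3 (−2.45) was the one member still called, and Ighe had too few counts to be tested. Ighg2b (−3.37) and Ighg2c (−1.65) kept their direction and did not pass. In naive B-like cells of the total libraries edgeR called 0 of 8 members and 0.0951% of all genes. Of the members 3 had an unadjusted p under 0.05, and DESeq2 called 0 members and 1.69% of genes. The share of all genes with an unadjusted p under 0.05 is not given, so these 3 cannot be set against it. With the block 4 members were called (Ighg1 3.53, Ighg2b 1.69, Igha 1.42 and Ighe 5.03), beside 18.2% of all genes. Without the block the folds of these 4 were 3.48, 1.95, 1.52 and 5.0. After subtraction of the T cell level Ighg2b and Igha turned to −3.0 and −1.61, and the former was −1.5 without cKO total 2. Cells led by a switched gene were rare in this class. Ighg1 led 0.921% and 1.37% of control YFP+ and 0.0664% and 0.0610% of cKO YFP+ naive B-like cells. Ighg2b led 0.205% and 1.17% of control YFP+ and 0 of 4518 and 0 of 6561 cKO YFP+ cells, and Igha led 0.614% and 0.805% against 0% and 0.0152%. These 3 shares were called lower in cKO YFP+ when edgeR was run on the numbers of cells led by each gene, which called 20% of the shares of this sort, at −4.14 for Ighg1, −7.85 for Ighg2b and −5.89 for Igha. The last 2 folds are fitted against libraries with 0 or 1 such cell and are no bound. Against a floor of 3 cells, with the control share taken as exact, the Ighg2b share was 3.08-fold and 25.5-fold lower in batches 1 and 2. In batch 1 the exact binomial intervals overlapped, at 0.0558% to 0.523% in control YFP+ and 0% to 0.0816% in cKO YFP+. With the block the calls on Ighg2b (−7.91) and Igha (−5.90) were lost, that on Ighg1 was lost with thinned cells (−3.20), and that on Ighg2b also at minimums of 1 (−8.03) and 5 UMIs (−6.82) and with doublets removed. Ighe led 0 naive B-like cells in every library, which allows a share of up to 0.0457% in cKO YFP+ 2 and 0.154% in control YFP+ 1.

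Ighg1 and Ighe were higher in cKO activated B-like cells of both sorts. Ighg1 was 70.5 and 80.9 CPM in control YFP+ and 439.6 and 618 CPM in cKO YFP+, and it was 1.59 and 0 CPM in control total and 132 and 126 CPM in cKO total. The cKO libraries lay above the control libraries in both sorts. The T cells beside them stood at 16.8 and 129 CPM in control YFP+ and 27.8 and 14.2 CPM in cKO YFP+, and at 2.83, 0.479, 22.7 and 15.1 CPM in the total libraries, so that the control YFP+ level of batch 2 was under its background and all 4 cKO levels were above theirs. Ighe, the gene of IgE, was 0 and 1.29 CPM in control YFP+, 81.1 and 39.7 CPM in cKO YFP+, 0 and 0.612 CPM in control total and 18.4 and 39.3 CPM in cKO total. Within batches the ratio of cKO to control YFP+ was at least 47.6 in batch 1, where the control held no Ighe UMI and 3 counts were taken as its floor. In batch 2 it was 30.7 over 2 control UMIs, with an exact 95% counting interval of 8.47 to 253. That interval takes UMIs as independent of the cells that held them. A few cells carried much of this signal. The cell with the most Ighe gave 32.5% and 13.2% of all Ighe UMIs in cKO YFP+ and 49.4% and 32.5% in cKO total activated B-like cells, and without that cell the levels were 55 and 34.5 CPM and 9.52 and 26.8 CPM. These still lay above the control libraries, and in cKO total they were 2.10 and 1.16 times the T cell level of the same library. In cKO YFP+ they were 6.21 and 2.42 times that level. With all cells the ratio in cKO YFP+ 2 was 2.79 over 2 T cell UMIs, with an exact 95% counting interval of 0.770 to 23.0, which includes the T cell level.

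In YFP+ activated B-like cells 7 of the 8 members were called, where edgeR called 10.7% of all genes. Folds fitted against control libraries with 0 to 2 UMIs, as for Ighe here, depend on the prior count and are no bound. Ighg1 rose by 2.95 ± 0.31 (adjusted p = 0.00206) and Ighe by 6.74 ± 0.74 (adjusted p = 0.00206). For Ighe DESeq2 gave a larger SE, 1.08, and the gene passed the filter on low counts through the cKO libraries. Ighd fell by 1.08 ± 0.23 on the log2 scale (adjusted p = 0.0225), from 519 and 502 CPM to 233 and 207 CPM, while Ighm was 2041 and 1777 against 1603 and 1549 CPM (−0.13, adjusted p = 0.782). The call on Ighd was lost at cluster resolution 0.5 (−0.45), with no filter on low counts (−0.97), and without cKO YFP+ 1 (−1.10) or cKO YFP+ 2 (−1.03). Ighg2b, Ighg2c, Ighg3 and Igha were lower in cKO by −2.83, −3.54, −3.71 and −2.81, and were lower in cKO T cells of this sort too. With no filter on low counts these 4 calls were lost (−2.74, −3.45, −3.60 and −2.69). After subtraction of the T cell level Ighg1 (4.4), Ighe (12.64), Ighd (−1.70) and Ighg3 (−2.95) were called, Ighg2b (−2.03) and Ighg2c (−0.49) were not, and Igha had too few counts to be tested. In the total libraries Ighg1 (7.51 ± 0.54) and Ighe (6.32 ± 0.76) were the 2 members called of 7 tested, with edgeR adjusted p of 9.32e-04 and 0.00753, beside 0.505% of all genes. The Ighg1 fold is no bound either, since the control total libraries held 4 and 0 Ighg1 UMIs, and DESeq2 gave it an SE of 1.35. They held 0 and 2 Ighe UMIs, so both genes passed the filter on low counts through the cKO libraries. Both calls were lost with no filter (7.53 and 6.34), and that on Ighe under scaling by totals without immunoglobulin genes (6.27). With the block 4 were called, Ighg2b (1.95) and Igha (1.74) being added, beside 6.17% of all genes. Their folds without the block were 1.92 and 1.71.

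Ighd was lower relative to Ighm in activated B-like cells of the YFP+ sort. Per 100 Ighm UMIs there were 25.4 and 28.2 Ighd UMIs in activated B-like cells of control YFP+ and 14.5 and 13.4 in cKO YFP+. The total libraries had a ratio of 33.8 and 34.5 in control and 35.2 and 34.4 in cKO activated B-like cells. In naive B-like cells it was 44.9 and 46.8 in control YFP+, 50 and 45.2 in cKO YFP+, 53.2 and 48.8 in control total and 50.1 and 45.3 in cKO total. Of these 16 ratios the lowest were those of cKO YFP+ activated B-like cells, where the Tnfsf4 and Phlda3 cluster held the largest share of the class. The part of that cluster in the ratio was not tested.

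Most activated B-like cells of the cKO that carried Ighg1 transcripts were still led by Ighm or Ighd. Ighm led 83.9% and 68.5% of control YFP+ and 83.4% and 86.0% of cKO YFP+ activated B-like cells, and Ighg1 led 2.68% and 1.59% against 4.34% and 4.60%. Among cells led by Ighm or Ighd, those with at least 3 Ighg1 UMIs made up 2.94% and 1.48% in the control YFP+ libraries, 43.7% and 55.9% in cKO YFP+, 0 of 264 and 0 of 401 cells in control total, which allows up to 1.14% and 0.748%, and 3.28% and 8.84% in cKO total. The median depth differed between the groups, at 6191.5 and 4643 UMIs per activated B-like cell of control YFP+ against 11049.5 and 15044 for cKO YFP+. With each cell thinned to 2000 UMIs and the leading gene called again, the shares of such cells with at least 3 Ighg1 UMIs were 0.690% and 0% for control YFP+ against 3.08% and 5.36% in cKO YFP+, and the shares with any Ighg1 UMI were 4.14% and 19.9% against 29.6% and 36.0%. No T cell shares at these cuts are given. In control YFP+ 2 the Ighg1 level of the class, 80.9 CPM, lay under the 129 CPM of its T cells. How many of these cells held free Ighg1 RNA was not tested. The depth-free level of Ighg1 in cells led by Ighm or Ighd was 36.3 and 67.1 CPM in control YFP+, 396 and 437 CPM in cKO YFP+, 1.63 and 0 CPM in control total and 72.8 and 118 CPM in cKO total. Ighg1 was also higher in cKO within each activated cluster. In the cluster led by Mreg and Nr6a1 it was 76.7 and 80.9 CPM in control YFP+ and 183 and 268 CPM in cKO YFP+. In the cluster led by Tnfsf4 and Phlda3 it was 20.5 and 80.7 CPM against 543 and 725 CPM. That cluster held a small part of the control class, so its control levels rest on few cells. In control YFP+ 2 the levels of both clusters lay under the 129 CPM of its T cells.

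**Figure D3:**
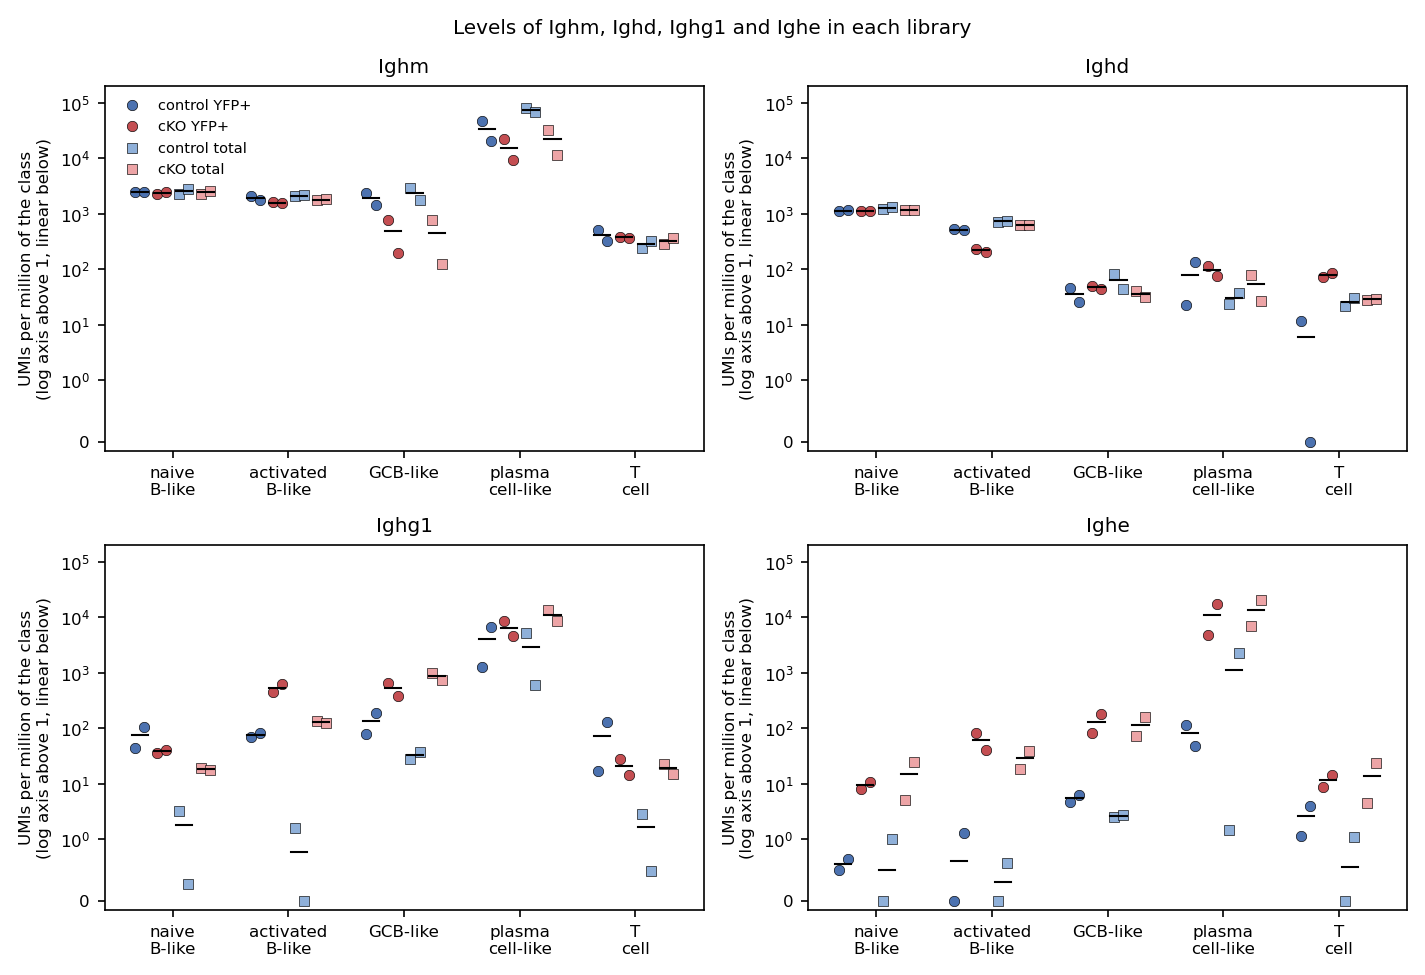
Levels of Ighm, Ighd, Ighg1 and Ighe (y axis, CPM, log above 1 and linear below) in each library (points) for 4 B-lineage classes and T cells, with the mean of each group of 2 as a line. The cKO points of Ighe lie above the control points in naive, activated and GCB-like cells and reach 20097 CPM in plasma cell-like cells. In naive B-like cells the cKO points of Ighe lie near those of T cells.

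GCB-like cells of the cKO carried less Ighm and more Ighg1 and Ighe. Ighm was 2318 and 1457 CPM in control YFP+, 760 and 195 CPM in cKO YFP+, 2919.5 and 1789 CPM in control total and 779 and 123 CPM in cKO total. The cKO level of batch 2 was under the T cell level of 370.0 CPM in the YFP+ sort and of 358 CPM in the total sort. In cKO total 1 Ighm was 2.78 times the T cell level, and 0.905 times without the cell that held the most. Ighg1 was 79.6 and 186 CPM in control YFP+, 659 and 387 CPM in cKO YFP+, 27.5 and 37.8 CPM in control total and 979 and 729 CPM in cKO total. In control total 1 Ighg1 was 9.69 times the T cell level, and 0.603 times without its top cell. Ighe was 4.58 and 6.36 CPM in control YFP+, 83.3 and 179 CPM in cKO YFP+, 2.50 and 2.76 CPM in control total and 72.2 and 157 CPM in cKO total. For both genes the lowest cKO library lay above the highest control library of the same sort. No single cell decided the Ighe level here, the largest contribution of 1 cell in a cKO library being 8.58% of the Ighe UMIs. Ighe stood at 9.41 and 12.6 times the T cell level in cKO YFP+ and at 15.9 and 6.75 times in cKO total, the T cell value of cKO YFP+ 2 resting on 2 UMIs (exact 95% counting interval of the ratio 3.47 to 104).

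In YFP+ GCB-like cells edgeR called 1 of 8 members, Ighe (4.59 ± 0.43, adjusted p = 0.00339), beside 0.914% of all genes. Ighg1 (1.97 ± 0.45, adjusted p = 0.122), Ighm (−1.94, adjusted p = 0.235) and Ighg3 (−2.17, adjusted p = 0.0614) did not pass. With the batch as a block 7 were called, beside 6.74% of all genes, namely Ighe, Ighg1 (2.09), Ighm (−2.20), Ighg2b (−0.61), Ighg2c (−1.47), Ighg3 (−2.17) and Igha (−2.16). After subtraction of the T cell level Ighe (5.43), Ighg1 (3.09, adjusted p = 0.00236) and Ighd were called. The fold of Ighd turned from 0.48 to −12.20 there and is no bound, since its cKO YFP+ levels in GCB-like cells, 50.2 and 43.9 CPM, lay under those of the T cells (71.4 and 85.4 CPM) and the subtraction left 0, while control YFP+ stood at 45.1 and 25.5 CPM over T cells at 11.8 and 0 CPM. The number called without the block also changed with each single library that was left out. In the total libraries 3 of 8 were called, beside 2.03% of all genes, namely Ighg1 (4.75 ± 0.31, adjusted p = 4.89e-06), Ighe (5.47 ± 0.53, adjusted p = 1.20e-04) and Ighg3 (−3.27 ± 0.34, adjusted p = 1.91e-04). Each control total library held 3 Ighe UMIs in this class, so Ighe passed the filter on low counts through the cKO libraries. Ighg3 was 66.6 and 74.6 CPM in control total and 4.04 and 9.58 CPM in cKO total GCB-like cells. With the block Ighm (−2.82), Ighd (−0.75), Ighg2b (−2.13) and Ighg2c (−0.89) were called too, making 7 beside 5.47% of all genes. Without the block these 4 folds were −2.34, −0.79, −1.68 and −0.83, and Ighg2c was 0.68 without control total 2.

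Ighe and Ighg1 were higher in cKO YFP+ in each cluster of the class. In the cluster led by Rgs13 and S1pr2 Ighe was 3.64 and 6.74 CPM in control YFP+ and 108 and 154 CPM in cKO YFP+. In the cluster led by Esco2 and histone genes it was 4.07 and 5.79 against 84.3 and 201 CPM, and in the cluster led by Cdc20 and Cdkn3 it was 7.44 and 7.06 against 64.7 and 138 CPM. Ighg1 in the 3 clusters was 65.0 and 184, 91.8 and 201, and 73.2 and 160.2 CPM in control YFP+ and 669 and 324, 672 and 430, and 623 and 327 CPM in cKO YFP+. The 2 genotypes did not overlap for either gene in any of these clusters.

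Shares of cells led by each gene were tested over the 4 libraries of a sort in 1 fit over all classes and genes, which called 6 of 30 shares in YFP+ (20%) and 5 of 24 in total libraries (20.8%). With the block 3 (10%) and 8 (33.3%) were called, those added in total libraries being Ighm-led (0.06) and Ighd-led naive B-like (−0.26) and Ighg1-led plasma cell-like cells. Ighe-led GCB-like cells rose in both sorts, by 5.56 ± 1.20 on the log2 scale in YFP+ (adjusted p = 0.0129) and by 7.33 in total libraries (adjusted p = 0.0357). Their shares were 0.102% ± 0.145 in control YFP+ and 7.81% ± 5.47 in cKO YFP+ (SD, n = 2), and 0 of 62 and 0 of 51 cells in control total, which allows up to 4.84% and 5.88%, against 10.2% and 18.8% in cKO total. Against that floor of 3 cells, with the cKO share taken as exact, the total share was 2.11-fold higher in cKO in batch 1 and 3.19-fold higher in batch 2. The fitted 7.33 is no bound. The YFP+ call was lost at a minimum of 1 UMI (5.86). The total call was lost with thinned cells (5.09), at cluster resolutions 0.5 and 1.5 (both 7.33), and without control total 1 (7.56) or control total 2 (7.60). Ighg1 led 2.91% and 9.79% of control YFP+, 43.4% and 29.9% of cKO YFP+, 1.61% and 5.88% of control total and 69.9% and 56.2% of cKO total GCB-like cells. This rise was called in total libraries (4.10, adjusted p = 4.51e-05) and, at 2.37 ± 0.69 (adjusted p = 0.0407), in YFP+. In YFP+ it was lost with the block (2.54), with thinned cells (2.76), at minimums of 1 (2.53) and 5 UMIs (2.36), with doublets removed (2.35), with DESeq2 (2.53) and when any library was left out, the log2 ratio being 1.94 and 3.69 for control YFP+ 1 and 2 and 1.99 and 2.53 for cKO YFP+ 1 and 2. Ighm-led GCB-like cells were fewer in cKO total (−3.31, adjusted p = 7.97e-06), and in YFP+ the difference of −1.54 did not pass (adjusted p = 0.0642). The total calls on Ighg1 and Ighm were both lost without control total 1 (3.39 and −3.10) or control total 2 (5.20 and −3.48).

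GCB-like cells had median depths of 12811 and 12070 UMIs in the control against 15913 and 17101 in the cKO YFP+ libraries, and the shares were taken again in thinned cells. With 2000 UMIs per cell Ighe led 0% and 0.0294% of control YFP+ and 1.43% and 3.32% of cKO YFP+ GCB-like cells, and Ighg1 led 1.14% and 3.59% against 20.9% and 11.4%. The Ighe-led GCB-like cells held few Ighe molecules, with medians of 14 and 18 UMIs over 14 and 25 cells in cKO YFP+ and of 10 and 11 UMIs over 18 and 45 cells in cKO total. In control YFP+ 2 the 7 such cells had a median of 4. Ighe was also present beside Ighm or Ighd. Of the 96 GCB-like cells of cKO YFP+ 1 led by Ighm or Ighd, 49.0% held an Ighe UMI and 22.9% at least 3, and of 21 such cells in cKO YFP+ 2 the shares were 33.3% and 19%. T cells of these libraries held an Ighe UMI in 4.64% and 7.69% of cells at medians of 4801 and 4607.5 UMIs, against 16236 and 18019 in these GCB-like cells.

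Ighe was higher in plasma cell-like than in GCB-like cells in both YFP+ groups and in both cKO total libraries. Ighe was 115 and 47.0 CPM in control YFP+, 4824 and 17395 CPM in cKO YFP+, 1.44 and 2264 CPM in control total and 6928 and 20097 CPM in cKO total. The genotypes did not overlap in either sort. In control total 2, 2406 of the 2407 Ighe UMIs came from 1 cell, and without it the level was 0.952 CPM. In control YFP+ the top cell gave 51.3% and 71.9% of the Ighe UMIs, leaving 56.2 and 13.2 CPM without it. In cKO YFP+ it gave 12.8% and 5.79%, and in cKO total 24.2% and 6.57%. The top cell thus gave most of the Ighe UMIs in every control library, of which control total 1 held 2, and a minority in every cKO library. The ratio of cKO to control within batches was 41.9 and 370.2 in YFP+ and 8.88 in batch 2 of the total sort. In batch 1 of the total sort the control held 2 UMIs, which gives a ratio of 4825 with an exact 95% counting interval of 1335 to 39849. That interval takes UMIs as independent, while they came in whole cells. Ighe led 12 of 59 cKO cells in this batch and 0 of 57 control cells, which allows up to 5.26%. The interval is therefore no bound on the difference between genotypes.

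In YFP+ plasma cell-like cells edgeR called 1 of 8 members, Ighe (7.20 ± 0.85, adjusted p = 0.00642), beside 0.792% of all genes, and the same member with the block. The other 7 ranged from −1.45 (Ighg3) to 0.67 (Ighg1). For every member, Ighe included, the batches of at least 1 group lay further apart on the CPM scale than the means of the genotypes. Igha was 21411 and 6481 CPM in control YFP+ and 20364 and 10568 CPM in cKO YFP+, and Ighg2b was 7432 and 11664 against 825 and 10991 CPM. Ighm was 47044 and 20622 CPM in control YFP+, 21806 and 9315 CPM in cKO YFP+, 80065 and 68959.5 CPM in control total and 32447 and 11267 CPM in cKO total. In the total libraries edgeR called 0 of 8 members and 0 of 7701 genes (0%), with 3 members and 457 genes under 0.05 before adjustment, while DESeq2 called 1 member and 27 genes (0.351%). The Ighe difference there was 3.59 ± 1.81 and was called without control total 2 (13.27), cKO total 1 (4.23) or cKO total 2 (2.41). With the block 6 members were called, beside 4.19% of all genes, namely Ighe (6.02), Ighm (−1.97), Ighg1 (2.58), Ighg2b (3.27), Ighg3 (−2.08) and Igha (1.59). The folds of the last 5 without the block were −1.84, 1.91, 3.23, −1.06 and 1.51, and Ighg2b was −1.11 without cKO total 2.

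Counted by leading gene, Ighe-led plasma cell-like cells made up 0.256% ± 0.0430 in control YFP+ against 26.1% ± 19.6 in cKO YFP+ (SD, n = 2), and 1.22% ± 1.72 in control total against 30.1% ± 13.8 in cKO total libraries. The log2 ratios were 6.47 ± 1.20 (adjusted p = 0.0129) and 4.74 (adjusted p = 0.0134). The YFP+ call was lost without control YFP+ 1 (6.32), and the total call at cluster resolution 1.5 (4.74) and without control total 1 (3.63) or control total 2 (7.54). Ighm-led cells were 53.2% and 25.2% in control YFP+, 34.2% and 9.47% in cKO YFP+, 84.2% and 70.7% in control total and 35.6% and 13.3% in cKO total, a fall that was called in total libraries (−1.84, adjusted p = 0.0134). That call was lost at cluster resolution 1.5 (−1.83), with DESeq2 (−1.70), and without control total 1 (−1.69), control total 2 (−1.94) or cKO total 2 (−1.13). Ighg1-led cells were 2.14% and 15.3% of the control and 21.9% and 8.42% of the cKO YFP+ class, which overlapped. In total libraries they were 1.75% and 2.44% against 28.8% and 10.2%, a rise called with the block (3.22). In thinned cells the Ighe-led shares were close to these, at 0.228% and 0.288% against 12.3% and 41.6% in YFP+.

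In each of the 4 cKO libraries Ighe took a smaller median share of the UMIs of Ighe-led plasma cell-like cells than Ighm and Ighg1 took in the cells that they led. In cKO YFP+ the 14 and 38 such cells had medians of 840.5 and 1038 Ighe UMIs, 2.25% and 3.29% of all UMIs of the cell, at median depths of 34317.5 and 30714 UMIs. The 39 and 9 Ighm-led cells had medians of 1212 and 2658 Ighm UMIs, 6.97% and 9.29%, at 18146 and 26896 UMIs. The 25 and 8 Ighg1-led cells had 798 and 984.5 Ighg1 UMIs, 4.33% and 6.49%, at 17649 and 23570 UMIs. In cKO total the 12 and 39 Ighe-led cells had medians of 609 and 1460 Ighe UMIs, 2.34% and 4.74%, at 34907.5 and 32900 UMIs, against 10.1% and 11.8% for Ighm-led and 5.81% and 7.70% for Ighg1-led cells. Ighg1-led cells of cKO total 2 were as deep, at 33829 UMIs. Nearly all constant transcript of an Ighe-led cell was Ighe, with medians of 93.8% and 95.7% in cKO YFP+. These cells fell in both plasma clusters, 50% and 26.3% of them in cKO YFP+ and 50% and 23.1% in cKO total lying in the smaller cluster with Sec24d, Hsp90b1 and Creld2 among its leading genes. Those 3 genes act in protein export and folding in the endoplasmic reticulum. Cells with more κ than λ light chain UMIs made up 100% of the Ighe-led cells in both cKO YFP+ libraries and 91.7% and 92.3% in cKO total, near the 92.3% and 100% of Ighm-led cells in cKO YFP+. Ighe was higher in cKO within each plasma cluster, at 84.4 and 75.1 against 3684 and 17891 CPM in the larger one and at 173 and 15.4 against 7249 and 15847 CPM in the smaller one (YFP+).

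**Figure D4:**
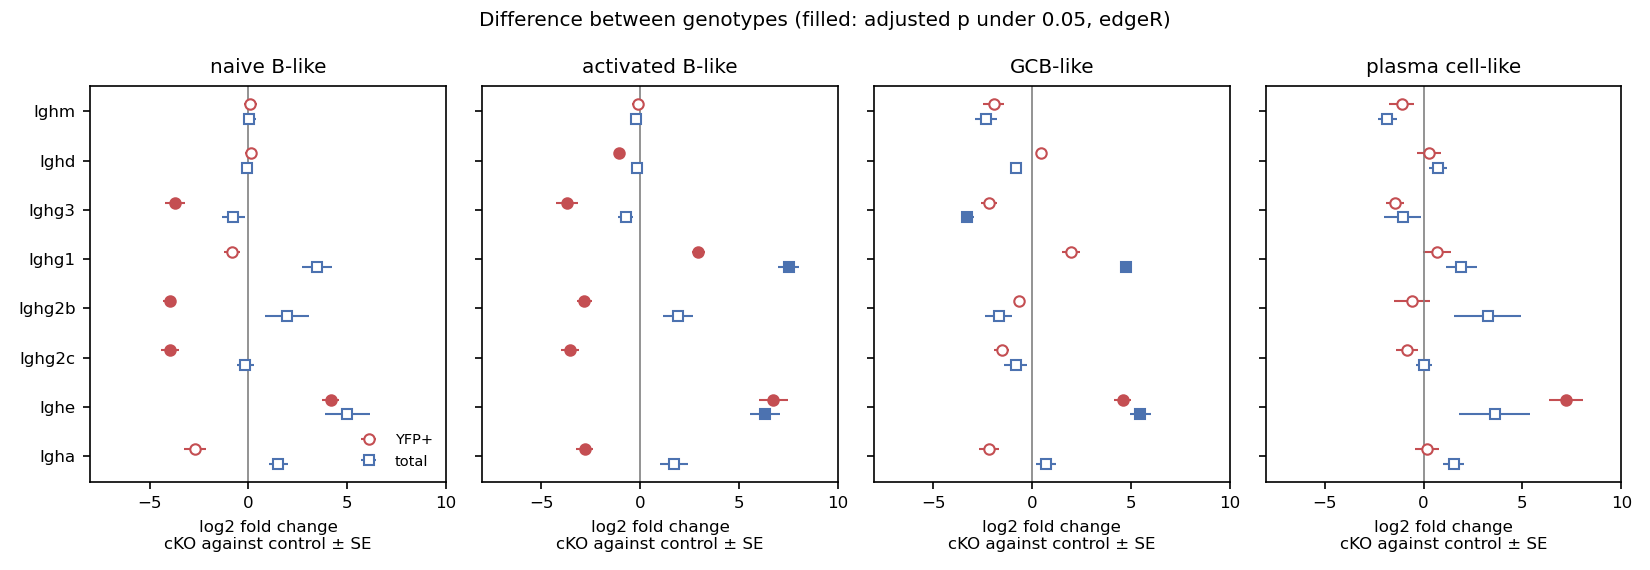
Fitted log2 fold change of cKO against control (x axis, ± SE) for each member (y axis, in the order of the locus) in 4 classes, YFP+ as circles and total as squares, filled where edgeR's adjusted p was under 0.05. The Ighe points lie to the right of 0 in all classes and both sorts, from 3.59 to 7.20. Those of naive B-like cells rest on cKO levels near those of T cells.

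Whether the genotype difference itself varied between the sorts was tested in naive and activated B-like cells over all 8 libraries. Without a block edgeR called 0 members and 0 genes (0%) of 13105 in naive and of 10884 in activated B-like cells. Before adjustment 5 and 6 members were under 0.05. The share of all genes under 0.05 before adjustment is not given, so these counts cannot be set against it. DESeq2 called 2 members and 0.0305% of genes in naive and 4 members and 0.588% in activated B-like cells. With the batch number within each genotype as a block, which takes the 2 sorts of a batch as a pair, 5 members were called in naive (2.21% of all genes) and 6 in activated B-like cells (15.7%), every one with a genotype difference that was lower in YFP+ than in total. Among them Ighg1 differed by −4.25 in naive and −4.62 in activated B-like cells. For this gene the control level itself differed between sorts, being 70.5 and 80.9 CPM in control YFP+ and 1.59 and 0 CPM in control total activated B-like cells. Ighe was not called in either class (−0.88 and 0.01 with the block). Ighg2b, Ighg2c, Ighg3 and Igha were lower in T cells of both cKO YFP+ libraries than in those of both control YFP+ libraries too, while T cell levels of Ighg1 overlapped between the genotypes in that sort. With the T cell level subtracted and no block, 0 members were called in either class.

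The genes around the locus were read from 5 lists. In YFP+ activated B-like cells, of 19 switch recombination genes 2 were higher and 0 lower in cKO, of 14 genes of the signals for constant gene promoters 1 was higher and 3 lower, and of 7 factors for heavy chain RNA processing and the locus enhancers 1 was higher and 3 lower. Of 4 receptors for immunoglobulin constant regions 1 was higher and 3 lower, and of 6 light chain constant genes and signalling partners 0 changed. The medians of the lists were 0.01, 0.17, −0.52, −1.67 and −0.24, with 5.87% of all genes higher and 4.79% lower. With the block the counts higher and lower were 3 and 1, 3 and 4, 1 and 3, 1 and 3, and 0 and 1, with 11% of all genes higher and 11% lower.

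Shld3, of the shieldin complex that protects cut DNA ends, rose by 2.48 in YFP+ activated B-like cells. Its levels were 2.27 and 1.94 CPM in control YFP+ and 8.93 and 12.3 CPM in cKO YFP+. The floor count used for Ighe was worth 1.71 and 1.94 CPM in these control libraries. The control levels of Shld3 thus rested on few UMIs, and its fold is no bound. Zfp318, the factor needed for Ighd transcripts to be made by readthrough, fell from 213 and 127 to 56.8 and 42.7 CPM (−1.63 ± 0.27, adjusted p = 0.00911), alongside the lower Ighd in those cells. Whether these were linked was not tested. Pou2f2 and Irf4, transcription factors of the B lineage, were also lower (−1.13 and −1.04).

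Among the signalling genes Nfil3, a transcription factor induced by interleukin-4 and needed for IgE in mice, was called higher in cKO in 7 of the 8 comparisons. It was 6.11 and 5.83 CPM in control YFP+ and 86.4 and 164 CPM in cKO YFP+ naive B-like cells, and 1.16 and 0.839 against 49.5 and 92.7 CPM in the total libraries. The log2 fold changes in YFP+ were 4.56 in naive, 3.17 in activated, 2.74 in GCB-like and 2.82 in plasma cell-like cells, and in total 6.26, 4.58 and 2.84 in the first 3 classes. In total plasma cell-like cells it was 1.46 and did not pass without the block. Tbx21, the gene of T-bet and linked to IgG2c, fell in YFP+ activated B-like cells (−2.21), YFP+ GCB-like cells (−2.93) and total GCB-like cells (−4.14). In YFP+ GCB-like cells it was 16.7 and 10.8 CPM in control and 1.56 and 2.01 CPM in cKO. Smad3, which carries TGFβ signals, was lower in YFP+ activated B-like cells (−2.60). In YFP+ plasma cell-like cells 4 of these 14 genes were higher and 0 lower, with and without the block, beside 0.636% of all genes higher and 0.157% lower, and the 3 with the largest folds were Nfil3, the receptor gene Il4ra (2.47) and Il21r (1.74). Il4ra was 5.15 and 4.03 CPM in control YFP+ and 20.1 and 29.4 CPM in cKO YFP+ there.

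Of the receptors that bind antibody, Fcgr2b was lower in YFP+ activated B-like cells and in GCB-like cells of both sorts. Fcmr was lower in YFP+ activated and total GCB-like cells, and Fcer2a was higher in YFP+ plasma cell-like cells. The other calls of this list in YFP+ activated B-like cells, that on Fcer2a included, are given above as counts and not by gene. Fcgr2b, the inhibitory receptor for IgG, was 84.2 and 89.9 CPM in control YFP+ and 18.6 and 13.8 CPM in cKO YFP+ activated B-like cells (−2.29), and it also fell in GCB-like cells of both sorts (−1.22 and −1.25). Fcmr, the IgM receptor gene, fell in YFP+ activated (−1.76) and total GCB-like cells (−1.20). Fcer2a, the gene of the low-affinity IgE receptor CD23, was 8.98 and 12.4 CPM in control YFP+ and 83.0 and 91.6 CPM in cKO YFP+ plasma cell-like cells (3.05 ± 0.30, edgeR adjusted p = 0.00216). Fcer2a, Il4ra and the other listed genes were not set against T cells here. How much of their levels was free RNA from other cells of the library is therefore not known. Iglc2 was the light chain constant gene called, lower in cKO total GCB-like cells (−1.98), where control total 2 stood at 1157 CPM and the other control at 318 CPM, against 217 and 154 CPM in cKO. Over the 5 lists together, of 50 genes, edgeR called 1 in YFP+ naive, 14 in YFP+ activated, 3 in YFP+ GCB-like and 5 in YFP+ plasma cell-like cells, and 1, 2, 7 and 0 in the same classes of the total libraries. Over all genes it called 0.527%, 10.7%, 0.914% and 0.792% in YFP+ and 0.0951%, 0.505%, 2.03% and 0% in total libraries. With the block these numbers were 14, 20, 13 and 10 in YFP+ and 15, 14, 13 and 6 in total libraries, beside 12.7%, 22.0%, 6.74% and 2.01% of all genes in YFP+ and 18.2%, 6.17%, 5.47% and 4.19% in total libraries. Where no gene of a list passed, the gene with the lowest p is given. In YFP+ naive B-like cells these were Apex1 (1.42), Irf4 (−2.01), Iglc1 (0.95) and Fcgr2b (−0.74), and in YFP+ activated B-like cells Iglc3 (−0.58). In YFP+ GCB-like cells they were Apex1 (0.62), Irf4 (−0.90) and Iglc2 (−1.11), and in YFP+ plasma cell-like cells Batf (1.15), Zfp318 (1.68) and Iglc2 (−1.58). In the total libraries they were Apex1 (1.08), Irf4 (−1.39), Iglc1 (0.42) and Fcmr (−0.57) in naive, Irf4 (−0.91), Cd79b (0.34) and Fcer2a (1.19) in activated, Apex1 (0.55) in GCB-like and Shld2 (−1.02), Irf4 (−0.79), Nfil3 (1.46), Iglc2 (−1.15) and Fcer2a (1.31) in plasma cell-like cells. With the block every one of these passed except Apex1 in total GCB-like and Shld2 in total plasma cell-like cells.

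**Figure D5:**
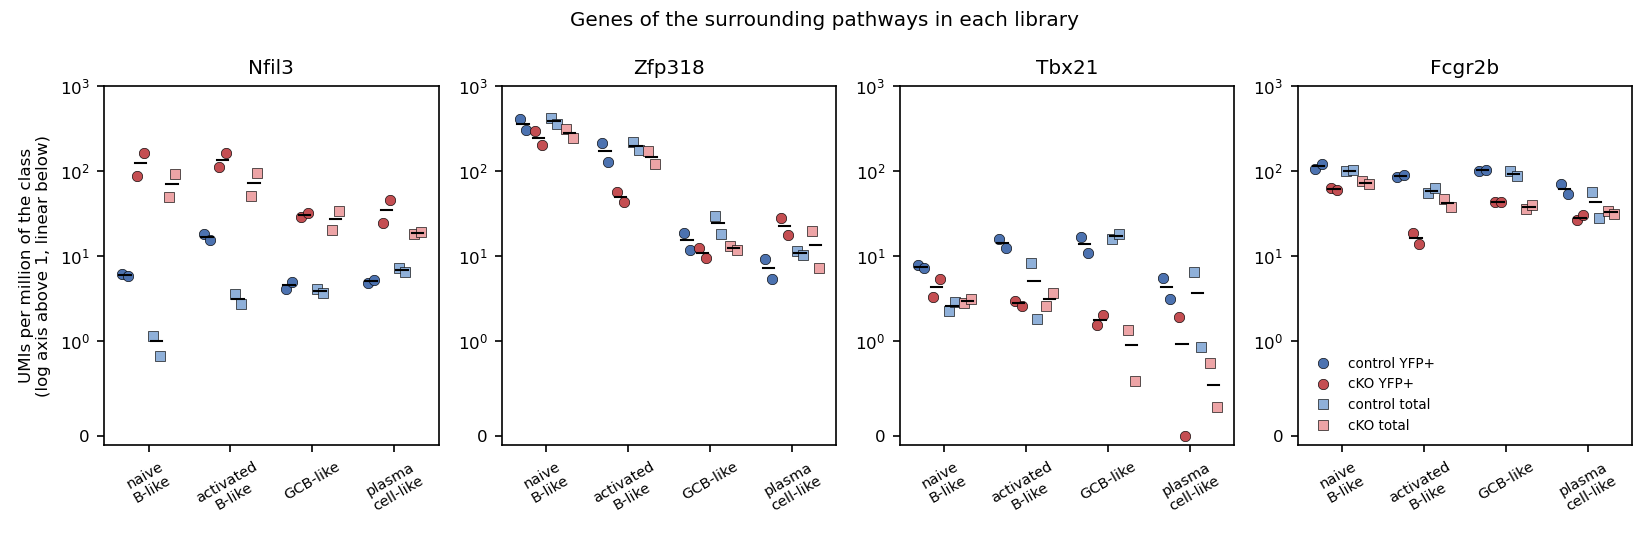
Levels of Nfil3, Zfp318, Tbx21 and Fcgr2b (y axis, CPM, log above 1 and linear below) in each library (points) for 4 B-lineage classes, with the mean of each group of 2 as a line. Nfil3 lies higher in cKO in all 4 classes, and Zfp318 lies lower in cKO YFP+ activated B-like cells.

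As a description, the genes whose level was most like that of each member were taken over 90 class sums of B-lineage cells, which share libraries and depth. Pearson's r is on log2(CPM + 1), over 9731 genes. Ighd was most like Zfp318 (r = 0.95), followed by Cnn3 (0.90) and Ephx1 (0.89). Ighe was most like Slpi (0.82), Tmem176a (0.77) and Rpl36al (0.75), and Ighg1 like Slpi (0.84), Srp9 (0.78) and Tmem176b (0.77). Jchain, the gene of the chain that joins IgM and IgA units, was among the 3 genes most like Ighg2b (0.78), Ighg2c (0.89) and Igha (0.84). Cacna1s came first for Ighg2b (0.83) and Edem1 for Ighg3 (0.81). Ighm was less like any one gene, with Fndc3a first at 0.79.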

How the data were processed

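The authors deposited raw UMI counts, with no normalization, from libraries made with a SeekOne DD 3′ kit. The submitters' processing notes name the GRCm38 and mm10 builds. For the aligner, the name was not given in the sources used here. Cells were filtered again as in the study (over 200 UMIs, over 100 genes, at most 10% mitochondrial UMIs), and this kept 83704 of 83967 barcodes.

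Cells were scaled to 10000 UMIs and clustered without immunoglobulin genes (2000 variable genes, 30 principal components, 20 neighbours, the Leiden method of igraph at resolution 1), then again within B-lineage cells. Clusters were named by their best-scoring marker list, provided that it led by 0.1 or more, that 3 of its markers were detected in 10% of cells, and that its markers were not outnumbered by another list's among the cluster's top 10 genes. The lead of 0.1 was set after the clusters were seen. T cell clusters that also scored for B cells were left out of the T cells used to judge free RNA. Doublets, marked in 0.612% to 2.46% of cells against simulated ones, were kept. In the 4 YFP+ libraries the caller's own threshold had marked too few cells, so that of the other libraries was used.

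Counts were summed per library and class where 20 or more cells were present. Within a sort, cKO was tested against control with the quasi-likelihood F test of edgeR 4.0.16 in R 4.3.3, after TMM scaling and filterByExpr, with Benjamini-Hochberg adjustment over all genes tested and a threshold of 0.05. Every adjusted p is from it. Each SE given with an edgeR fold is that fold over the square root of its F, not an estimate of its own, and can be too small at low control counts. The filter can be passed through 1 genotype. This was so for Ighe in YFP+ naive, in total GCB-like and in activated B-like cells of both sorts. It was also so for Ighg1 in total activated B-like cells. Control libraries held 0 to 5 UMIs each in these cases. Numbers of cells led by a gene were tested by the same tool with the class's cells as offset. The scripts were checked on simulated counts. DESeq2 1.42.0, other scalings, filters, clusterings and depths were alternatives. The batch number pairs libraries by the labels, and deviations from the group means of same-numbered libraries correlated at 0.24 to 0.60. With 2 pools of mice per group the p-values measure the spread between these pools, and 2 against 2 allows no exact permutation p below 0.05.

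All 8 members are named. From each list, up to 3 called genes with the largest fold are named per class and sort, or the gene with the lowest p where none was called, and for each member the genes most like it. Of the listed genes, 1 that the rule names is not reported here. Members and lists were chosen with earlier results of these data known. Sequences are from GENCODE vM21 transcripts. No per-sample column of another series was present.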

Additional observations from a re-analysis of the deposited data

Results flagged for a closer look

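With the batch number within each genotype as a block, the genotype difference of 11 member and class pairs differed between the YFP+ and the total sort. The block takes the YFP+ and total libraries of a batch as a pair, and whether these shared mice is not stated. The values are the log2 fold change of cKO against control in YFP+ minus that in total libraries. In naive B-like cells these were −4.25 for Ighg1, −5.93 for Ighg2b, −3.85 for Ighg2c, −2.86 for Ighg3 and −4.34 for Igha. In activated B-like cells they were −0.88 for Ighd, −4.62 for Ighg1, −4.75 for Ighg2b, −4.54 for Ighg2c, −2.96 for Ighg3 and −4.51 for Igha. Without the block edgeR called none of the 8 members in either class, with 5 and 6 under 0.05 before adjustment, while DESeq2 called 2 and 4. The share of all genes under 0.05 before adjustment is not given beside the 5 and 6. In naive B-like cells the switched members stood at a median of 1.23 times the T cell level of the same library.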

How the results depend on the processing

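Alternatives moved the number of members called more than their direction. With no filter on low counts 2 members were called in YFP+ activated, 2 in YFP+ GCB-like, 0 in YFP+ plasma cell-like and 0 in total activated B-like cells. DESeq2 called 3 in YFP+ GCB-like, 2 in YFP+ plasma cell-like and 1 in total plasma cell-like cells, and 2 and 4 for the difference between sorts in naive and activated B-like cells. With free RNA subtracted, 1 was called in YFP+ naive, 4 in YFP+ activated and 3 in YFP+ GCB-like cells. Scaling by totals without immunoglobulin genes left 1 in total activated B-like cells. Except for DESeq2 in total plasma cell-like cells and between sorts, the shares of all genes called under these settings are not given. The counts of members can therefore not be set against them. The replicate block by batch number (between sorts, within each genotype) gave 7 in YFP+ GCB-like, 4 in total naive, 4 in total activated, 7 in total GCB-like and 6 in total plasma cell-like cells, and 5 and 6 between sorts. Of the leading gene shares, 3 were called in YFP+ with a minimum of 1 UMI and 3 with the block, and in total libraries 2 at cluster resolution 1.5 and 8 with the block.

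With 1 library left out the numbers of members called ran from 5 to 6 in YFP+ naive, 6 to 7 in YFP+ activated, 5 to 8 in YFP+ GCB-like and 1 to 3 in YFP+ plasma cell-like cells (2 without cKO YFP+ 2 and 3 without control YFP+ 2). They ran from 2 to 5 in total naive, 2 to 4 in total activated (4 without control total 1 or cKO total 1), 4 to 6 in total GCB-like and 1 to 6 in total plasma cell-like cells (6 without cKO total 1). Between sorts they ran from 0 to 1 in naive and were 0 to 0 in activated B-like cells. Shares called ran from 5 to 8 in YFP+ and from 0, without control total 1 or 2, to 12, without cKO total 1, in total libraries. When 1 of a pair is left out, the lone library is assumed to vary like the others. The percentages of all genes called in these fits are not given. The numbers of members called with 1 library left out can therefore not be set against them. Of 1164 values of members under an alternative 48 had the other sign than the value reported, none of them called in the latter and 1 called under the alternative, Ighd in YFP+ GCB-like cells with free RNA subtracted (−12.20). Of members called under some setting, those that turned were also Ighg1 in YFP+ naive B-like cells (0.60) and Ighd in YFP+ plasma cell-like cells (−1.77) with free RNA subtracted, and with 1 library left out Ighg1 in YFP+ naive B-like cells (−1.37 to 0.03) and Ighd (−0.51 to 2.12), Ighg1 (−0.09 to 2.39) and Ighg2b (−3.62 to 0.31) in YFP+ plasma cell-like cells, at the turned end without control YFP+ 2, control YFP+ 1, control YFP+ 1 and cKO YFP+ 1. The others were Ighg2b in total naive (−3.0) and Igha in total naive (−1.61) B-like cells with free RNA subtracted, Ighg2b in total activated B-like cells at resolution 0.5 (−1.37), Ighg2b in total naive (−1.5 to 2.87 over the libraries left out) and total plasma cell-like cells (−1.11 to 7.68), lowest without cKO total 2, and Ighg2c in total GCB-like cells (−2.12 to 0.68), highest without control total 2. The causes were not tested. Ighe was called in YFP+ naive, activated and GCB-like cells under every alternative that could be fitted, and in YFP+ plasma cell-like cells under all but the missing filter (7.17). For naive B-like cells the subtraction of free RNA could not be fitted. Their cKO YFP+ levels of Ighe were 0.915 and 0.760 times those of T cells, the latter over 2 T cell UMIs. Of the values of members called under some setting and of shares called with or without the block, 236 of those with 1 library left out stayed on the same side of the threshold, while 70 gained a call, 23 lost one and 7 turned sign. Under the other alternatives 634 stayed, 50 gained, 34 lost and 6 turned. Scaling by totals without immunoglobulin genes also ended the call on Ighg3 in YFP+ naive B-like cells (−3.86). The block changed no other call on a member or share than those given with the results.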

Other observations

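Among B-lineage clusters, 3 took no name. The one led by Ryr2, Xist and Plcl1 held 1453 and 909 cells in cKO YFP+ and 641 and 737 cells in cKO total, but 26 and 23 cells in control YFP+ and 7 and 8 cells in control total libraries. Naive B had the highest score there. Its cKO YFP+ levels were 2291 and 2378 CPM for Ighm, 934 and 1051 CPM for Ighd, 52.6 and 41.3 CPM for Ighg1 and 8.12 and 12.4 CPM for Ighe. In cKO total they were 2029 and 2176 CPM for Ighm, 939 and 1054 CPM for Ighd, 19.3 and 15.3 CPM for Ighg1 and 5.17 and 27.4 CPM for Ighe. The one led by Sh2d6, S100a6 and Parm1 held 625 and 829 cells of the control against 57 and 47 of the cKO YFP+ libraries. Cells led by a switched gene made up 47.8% and 59.0% of it in the control against 50.9% and 68.1% in the cKO YFP+ libraries. Ighe was 2.89 and 2.77 CPM there in control YFP+ and 20.4 and 225 CPM in cKO YFP+, and Ighe-led cells made up 0% and 0% against 0% and 8.51%. In B1-like cells Ighg1 was 53.4 and 103 CPM in control YFP+ and 226 and 196 CPM in cKO YFP+. T cells stood at 16.8 and 129 CPM and at 27.8 and 14.2 CPM, so the level in control YFP+ 2 was under its background. B1-like cells led by a switched gene made up 7.73% and 9.08% against 2.10% and 1.52%. Ighm in the same cells was 4495 and 4338 CPM in control YFP+ and 4165 and 4251 CPM in cKO YFP+. Ighm led 97.2% and 93.6% of control YFP+ and 96.2% and 92.9% of cKO YFP+ marginal zone B-like cells. None of these values was tested.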
